A study of Rattus norvegicus with 10 samples.

Results

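The genes described here encode adipokines, the proteins through which fat tissue signals to the rest of the body, and were followed in white adipose tissue of 10 male rats. Of 8 adipokine genes named for this purpose, 7 had a probe set that the array's annotation gives to 1 gene, out of 14217 such genes in all. These were Adipoq, Lep, Cfd, Nampt, Rbp4, Rarres2 and Metrnl, with 8 probe sets among them because Nampt had 2, and Retn, the resistin gene, is not analysed here. The noodle group of 5 rats received a diet of which 30% by weight was instant noodle, with 26% of its energy from fat, and the 5 rats of the control group ate that diet with the seasonings left out. All rats were 13 weeks old, were kept under a 12 hour light and dark cycle and had free access to water. Feeding was paired, with a daily ration near 60 g per kg of body weight, and lasted 30 days, or 4 weeks by another entry of the labels. No genetic change or drug is named for either group, and the labels give neither the strain nor the fat depot.

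Adipokines are made by fat cells and by the stromal and immune cells around them. Leptin, from Lep, reports the size of the fat stores to the brain, and adiponectin, from Adipoq, raises insulin sensitivity through the receptors Adipor1 and Adipor2. Cfd encodes adipsin, or complement factor D, a protease that starts the amplification step of the alternative complement pathway. Nampt encodes the rate-limiting enzyme of NAD salvage, which is also found outside cells, where it is called visfatin. Rbp4 carries retinol in blood, Rarres2 encodes chemerin, the ligand of the receptor Cmklr1, and Metrnl encodes meteorin-like, a secreted factor of fat, muscle and skin.

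The DNA just upstream of 3 of the genes that varied between rats is shown to place them, from RefSeq (GRCr8), for the window from -250 to -11 relative to the start of the transcript. Of the 7 genes, 6 had an entry in that table. Capitals mark matches, on either strand, to the letters TATAA (TATA box), TTGCNNAA (a C/EBP core), GGGCGG (GC box), CACGTG (E-box) or AGGTCA (nuclear receptor half-site).
Lep, chr4:58626288-58626527, plus strand: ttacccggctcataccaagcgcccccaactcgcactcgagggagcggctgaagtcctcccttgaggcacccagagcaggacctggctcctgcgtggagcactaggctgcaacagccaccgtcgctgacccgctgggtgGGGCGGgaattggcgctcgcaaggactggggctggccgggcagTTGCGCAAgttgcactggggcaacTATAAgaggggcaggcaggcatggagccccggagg
Cfd, chr7:10465507-10465746, minus strand: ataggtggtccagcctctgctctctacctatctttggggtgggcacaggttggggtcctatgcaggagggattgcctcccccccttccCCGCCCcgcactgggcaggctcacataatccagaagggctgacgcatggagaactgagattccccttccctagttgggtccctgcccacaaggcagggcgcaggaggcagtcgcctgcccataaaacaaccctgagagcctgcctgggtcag
Metrnl, chr10:107461898-107462137, plus strand: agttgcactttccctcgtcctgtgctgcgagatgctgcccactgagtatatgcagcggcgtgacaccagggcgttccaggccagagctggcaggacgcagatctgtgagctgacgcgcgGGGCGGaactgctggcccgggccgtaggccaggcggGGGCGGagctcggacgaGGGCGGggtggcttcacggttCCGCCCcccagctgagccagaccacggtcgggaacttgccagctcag
The Lep window holds a C/EBP core from -69 to -62, a TATA box from -45 to -41 and a GC box from -112 to -107. Among 33469 promoter windows of the same length, 8.94% hold the C/EBP core, 23.4% the TATA letters and 29.5% the GC box. The Metrnl window holds 4 GC boxes and the Cfd window 1, and neither holds any of the other letters searched, of which the E-box is in 5.39% and the half-site in 13.5% of all windows. No matches overlap, and a match is a description of the letters only.

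The tissue showed the markers of fat. All 17 measured adipocyte markers lay above the median of the arrays, with a median level of 11.8 on the log2 scale against 6.18 for all probe sets. Of 9 measured brain markers, looked at because the extraction text of the labels names another tissue, 1 lay above the array median and the median level was 5.75. The deposited table is unusually even between arrays. Of 31042 probe sets, 8.40% had an SD over the 10 arrays above 0.01 log2 units, and the others are called flat here, so that no size of a difference is read from them. Array 14 of the control group had the lowest mean correlation with the other arrays, 0.9948, where the other 9 lay between 0.9959 and 0.9969.

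The adipokine genes had some of the strongest signals on the array. Cfd, at 12.98 on the log2 scale, stood above 99.96% of all probe sets, and Adipoq at 12.68, Rbp4 at 11.98 and Rarres2 at 11.19 stood above 99.92%, 99.74% and 99.33% of them. Lep followed at 9.24, Metrnl at 8.55 and Nampt at 8.28, above 95.7%, 91.9% and 89.8% of all probe sets. The flat probe set of Nampt stood last at 6.54. This order is one of signal, and since probe sets differ in how they respond it does not rank the amounts of transcript. Metrnl and the varying probe set of Nampt were not apart by more than their spread. Metrnl stood above Nampt in 7 of 10 rats, 3 of 5 on the noodle diet and 4 of 5 on the control diet, while Lep stood above Metrnl in 10 of 10. The 4 strongest probe sets did not overlap each other, the lowest value of Cfd being 12.76 in control rat 2. Since those of Adipoq, Rbp4 and Rarres2 were flat, this does not measure how steady their order is between rats.

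**Figure D1:**
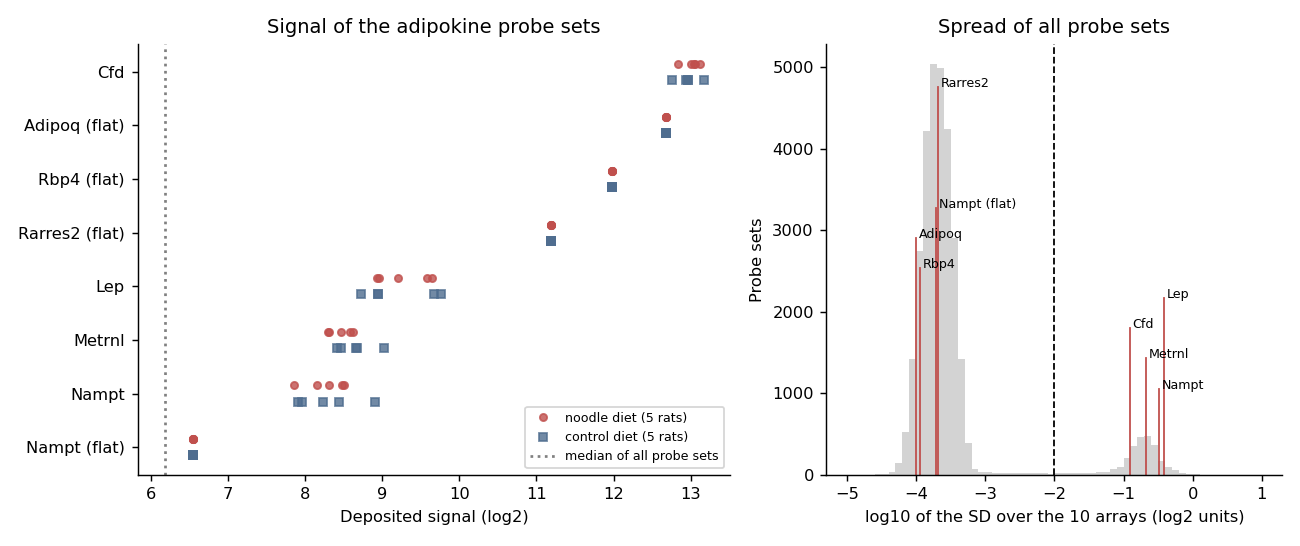
Left, deposited signal (log2) of each adipokine probe set in the 5 noodle (circles) and 5 control rats (squares), with the median of all probe sets dotted. Right, histogram of the log10 SD over the 10 arrays for all 31042 probe sets with the adipokine probe sets marked by red lines (line height has no meaning) and the limit of 0.01 dashed: 4 of the 8 lie in the flat mass and 4 in the smaller mass that varied.

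In the deposited values the probe sets of Adipoq, Rbp4, Rarres2 and the weaker one of Nampt were flat, with SDs of 9.9e-05 to 0.00021 log2 units. Adipoq, for one, lay between 12.6774 and 12.6778 in all 10 rats. The call belongs to the deposited scale, since after quantile normalization the SDs of Adipoq, Rbp4 and Rarres2 were 0.0346, 0.0247 and 0.0158, above the limit of 0.01, and that of the Nampt probe set was 0.0033. The smallest SD of the other 4 was that of Cfd, at 0.12. Lep, with an SD of 0.39, varied more than 91.7% of the 2607 probe sets that were not flat, Nampt (0.32) more than 86.8%, Metrnl (0.21) more than 59.0% and Cfd more than 21.2%. Between the highest and the lowest rat, the deposited signal differed 2.07-fold for Nampt, 2.06-fold for Lep, 1.66-fold for Metrnl and 1.33-fold for Cfd. In whole tissue, fewer cells that express a gene and less RNA per cell cannot be told apart.

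The diet comparison asked whether the seasonings changed these signals. No adipokine passed the test, and the rats of both diets overlapped for each of them. In limma, 0 of the 8 adipokine probe sets reached an adjusted p of 0.05, as did 0 of all 31042 (0%), and 0 of the 8 had an unadjusted p under 0.05, against 4.77% of all probe sets and 8.13% of those not flat. Groups that did not overlap were found in 0.718% of all probe sets and for 0 of the 8. The share of the sum of squares that lay between the diet groups was 0.27% for Nampt, 0.632% for Lep and 5.71% for Cfd. It was 22.8% for Metrnl (unadjusted p = 0.148 in limma). Such a share is above 0 also where diet has no effect.

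Lep stood at 9.57, 8.94, 9.21, 8.96 and 9.65 log2 units in noodle rats 1, 4, 7, 10 and 13, against 9.67, 8.72, 8.94, 8.94 and 9.76 in control rats 2, 5, 8, 11 and 14. High and low rats occurred on both diets, and all 5 noodle rats lay inside the control range. The mean was 9.27 ± 0.33 in noodle rats and 9.21 ± 0.47 in control rats (SD, n = 5 each). The difference was 0.06 ± 0.25 (SE), a fold of 1.04 with a 95% interval of 0.700 to 1.55 and an adjusted p of 0.999 (limma). It turned to values down to -0.06 when 1 of 5 rats (noodle 1 or 13, control 5, 8 or 11) was left out, and was 0.20 without control rat 14, 0.17 without control rat 2, 0.14 without noodle rat 4 and 0.13 without noodle rat 10.

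Cfd stood at 13.01, 13.12, 13.04, 13.05 and 12.84 in noodle rats 1, 4, 7, 10 and 13, against 12.76, 13.17, 12.96, 12.96 and 12.94 in control rats 2, 5, 8, 11 and 14. Noodle rat 13 and control rat 2 were lowest on their diets, and all 5 noodle rats lay inside the control range. The difference was 0.06 ± 0.08, or 1.04-fold with a 95% interval of 0.919 to 1.18 (adjusted p = 0.993, limma). It was 0.0056 without control rat 2, 0.03 without noodle rat 4, 0.10 without noodle rat 13 and 0.11 without control rat 5.

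Nampt, by the probe set that varied, stood at 8.15, 7.86, 8.51, 8.48 and 8.32 in noodle rats 1, 4, 7, 10 and 13, against 8.24, 8.91, 8.44, 7.91 and 7.96 in control rats 2, 5, 8, 11 and 14. Control rat 5 was the highest of all and noodle rat 4 the lowest. The difference was -0.03 ± 0.21, or 0.978-fold with a 95% interval of 0.701 to 1.36 (adjusted p = 0.999, limma). Its sign turned without noodle rat 4, control rat 5 or control rat 8, and the value lay between -0.13 (without control rat 11) and 0.12 (without control rat 5). It was -0.12 without control rat 14, -0.09 without noodle rat 7 or 10, -0.05 without noodle rat 13, -0.05 without control rat 2 and -0.004 without noodle rat 1.

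Of the 4 adipokines that varied, Metrnl had the diets farthest apart relative to the spread. It stood at 8.62, 8.58, 8.29, 8.31 and 8.46 in noodle rats 1, 4, 7, 10 and 13, against 8.66, 8.42, 8.68, 8.47 and 9.02 in control rats 2, 5, 8, 11 and 14. Noodle rats 7 and 10 lay below every control rat, the other 3 noodle rats inside the control range, and control rat 14 stood above all others. The difference was -0.19 ± 0.12, or 0.875-fold with a 95% interval of 0.722 to 1.06 (adjusted p = 0.993, limma), and it was -0.10 without control rat 14.

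A sign of RNA quality moved with the diets. The difference between the 3-prime and 5-prime control probe sets of Actb and Gapdh was 0.8369 ± 0.0691 in noodle rats and 0.9495 ± 0.0844 in control rats (SD, n = 5 each, two-sided exact permutation p = 0.0476), and this p no longer passed without any 1 of noodle rats 1, 7 and 13 or control rats 2, 5, 8 and 11. With that difference as a covariate, Metrnl differed by -0.38 ± 0.13 (95% interval -0.68 to -0.07, adjusted p = 0.735 in limma), Lep by -0.41 ± 0.21 and Cfd by 0.16 ± 0.09, while Nampt differed by 0.19 ± 0.26. The adjusted p of Metrnl lay between 0.368 and 1 over the 20 other settings tried. The part of RNA quality in these values was not tested further.

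**Figure D2:**
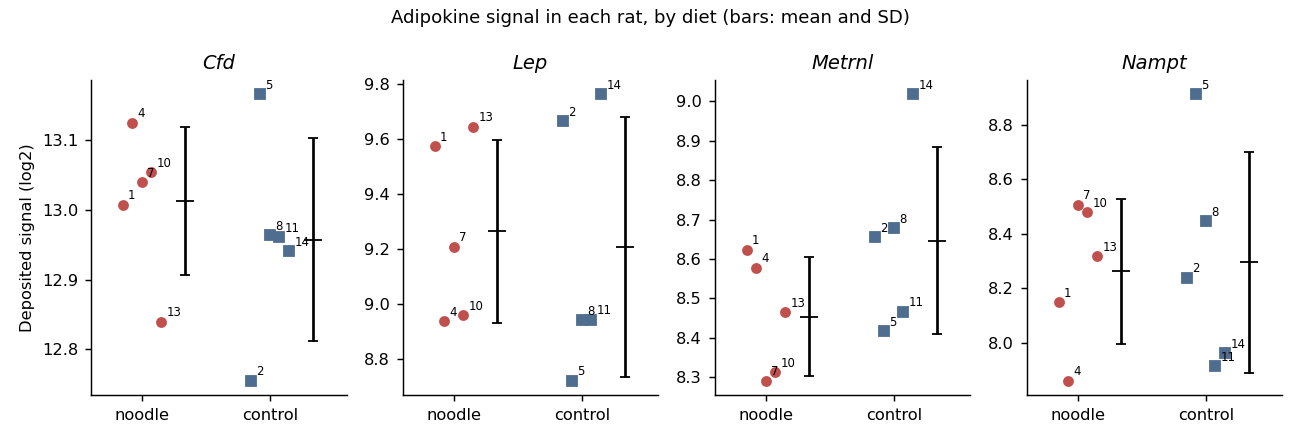
Deposited signal (log2) of the 4 adipokine genes that varied in each noodle rat (circles) and control rat (squares), labelled by animal number, with the mean and SD of each group of 5 as black bars. The groups overlap in all 4 panels, and control rat 14 stands apart at 9.02 for Metrnl.

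**Figure D3:**
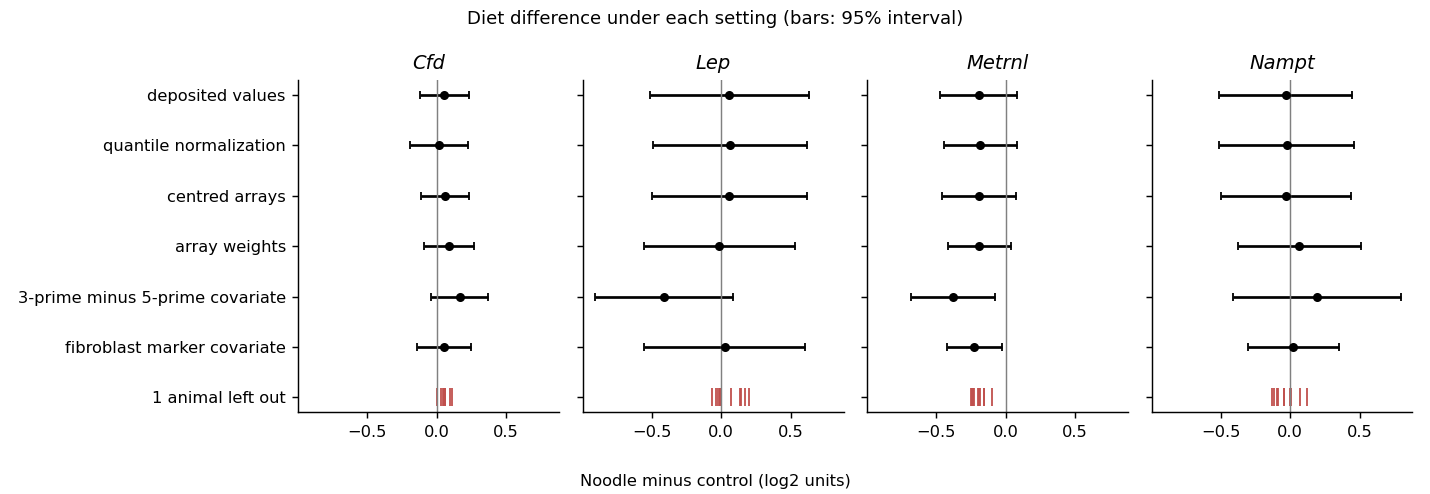
Noodle minus control difference (log2 units) of the 4 genes under 6 settings with 95% intervals (black) and with each rat left out in turn (red ticks, no interval). The Lep and Nampt ticks lie on both sides of 0, the Cfd ticks above it and the Metrnl ticks below it, between -0.25 and -0.10.

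Across the 10 rats the clearest relation among the adipokines was an inverse one between Lep and Cfd. Control rat 5 had the lowest Lep and the highest Cfd, and control rat 2 and noodle rat 13 had the lowest Cfd with a Lep near the top. Pearson's r was -0.733 and Spearman's rho -0.782 (n = 10, permutation p = 0.0154 and 0.0107), and both had an adjusted p of 0.0925 over the 12 tests on 6 pairs. It did not pass the adjustment on the deposited values. On deviations from the diet means, shuffled within the diets, r was -0.777 with an adjusted p of 0.0184, and it was the 1 pair that passed in that form. After quantile normalization r was -0.653 with an adjusted p of 0.286 (permutation). Without control rats 2 and 5, the farthest from the median of Cfd, r was -0.577. A gap of 0.367 in Lep lay between 4 rats, from 9.57 to 9.76, and the other 6, from 8.72 to 9.21. Within those 6, r was -0.443 and rho -0.543 (exact permutation p = 0.303 and 0.297).

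Lep also moved with the 3-prime to 5-prime difference, at r = -0.655 and rho = -0.455 (n = 10, permutation p = 0.0432 and 0.191, adjusted p = 0.605 for r over 56 tests), and at -0.884 without control rats 2 and 14. After that difference was taken out of both genes over the pooled 10 rats, Lep and Cfd had an r of -0.752 (adjusted p = 0.156, permutation). On deviations from the diet means, r with that difference was -0.784 for Lep and 0.585 for Cfd (adjusted p = 0.114 and 0.475, permutation). The relation of Lep and Cfd in that form, with the difference taken out, was not tested. None of the other 5 pairs of adipokines passed. Lep and Metrnl had an r of 0.541, Metrnl and Nampt -0.507, Lep and Nampt -0.369, Cfd and Metrnl -0.348 and Cfd and Nampt 0.284, with adjusted p between 0.272 and 0.464. The r of Lep and Metrnl was 0.308 without control rat 14, which was highest in both genes. The r of Cfd and Nampt was -0.11 without control rat 5, highest in both.

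The 2 probe sets of Nampt gave nearly the same order of rats although 1 of them was flat. The flat one spanned 6.54446 to 6.54493, a range of 0.00047 log2 units, where the other spanned 1.05. Their r was 0.886 and rho 0.879 (n = 10, permutation p = 0.00036 and 0.00163), and r was 0.919 without control rat 5 and noodle rat 4. This pair was looked at after the values were seen. Over 1100 pairs of a flat and a varying probe set of the same gene, from 600 genes, the median r was 0.452, and 7.27% of the pairs reached the r of Nampt. Over 373 pairs in which both varied, the median was 0.869.

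**Figure D4:**
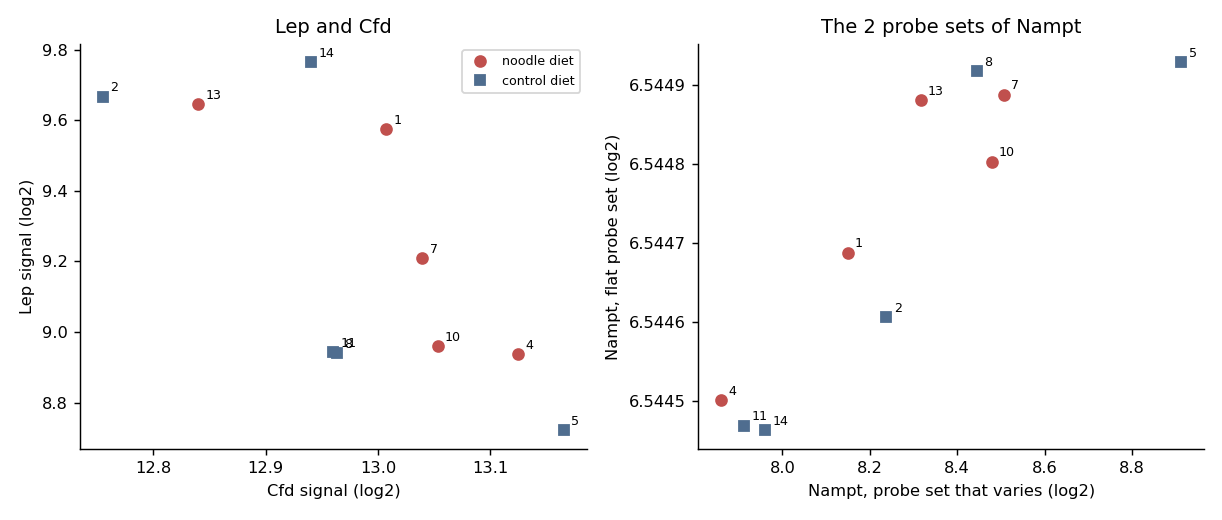
Left, Lep against Cfd (log2) in each rat, labelled by animal number (r = -0.733). Right, the flat probe set of Nampt against the one that varied (r = 0.886); the vertical axis spans about 0.0005 log2 units and the horizontal one over 1.

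Over the pooled 10 rats, Nampt had the values of r farthest from 0 with marker lists of cell types. On deviations from the diet means the farthest was that of Metrnl with the macrophage markers, 0.845. No relation passed the adjustment in either form, and differences between the adipokines were not tested. Against the mean of 7 fibroblast and preadipocyte markers, among them the collagen genes Col1a1 and Col3a1, Nampt had an r of -0.779 and a rho of -0.83 (n = 10, permutation p = 0.00693 and 0.00461, adjusted p = 0.194 for r over 56 tests). Without control rat 5 and noodle rat 4, r was -0.70. Without control rat 11 it was -0.876, with an adjusted p of 0.0459 (permutation), the 1 of 10 runs with 1 rat left out that passed. The other 9 had an adjusted p from 0.202 to 0.598, the highest without control rat 14. Against 11 adipocyte markers Nampt had an r of 0.721 and a rho of 0.552 (permutation p = 0.0178 and 0.105, adjusted p = 0.333 for r), and 0.345 without control rat 5 and noodle rat 4. Metrnl had an r of the other sign, 0.602, and a rho of 0.552 against the fibroblast and preadipocyte markers (permutation p = 0.0649 and 0.106, adjusted p = 0.717 for r), 0.463 without control rat 14 and noodle rat 7 and 0.41 without control rat 14 alone. Cfd had an r of 0.0291 with these markers and -0.0711 with the adipocyte markers.

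All 8 fibroblast and preadipocyte markers were measured, the weakest at 9.06, and the mean of the 7 that varied lay between -0.208 and 0.371 in noodle rats and between -0.207 and 0.288 in control rats, relative to all 10. With that mean as a covariate the diet difference was 0.02 ± 0.14 for Nampt, 0.03 ± 0.25 for Lep, 0.06 ± 0.08 for Cfd and -0.22 ± 0.09 for Metrnl (95% interval -0.42 to -0.02, adjusted p = 0.921 in limma). Of the 28 relations between 4 adipokines and 6 marker lists or the RNA measure, 0 passed the adjustment and 3 had an unadjusted p of r under 0.05.

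**Figure D5:**
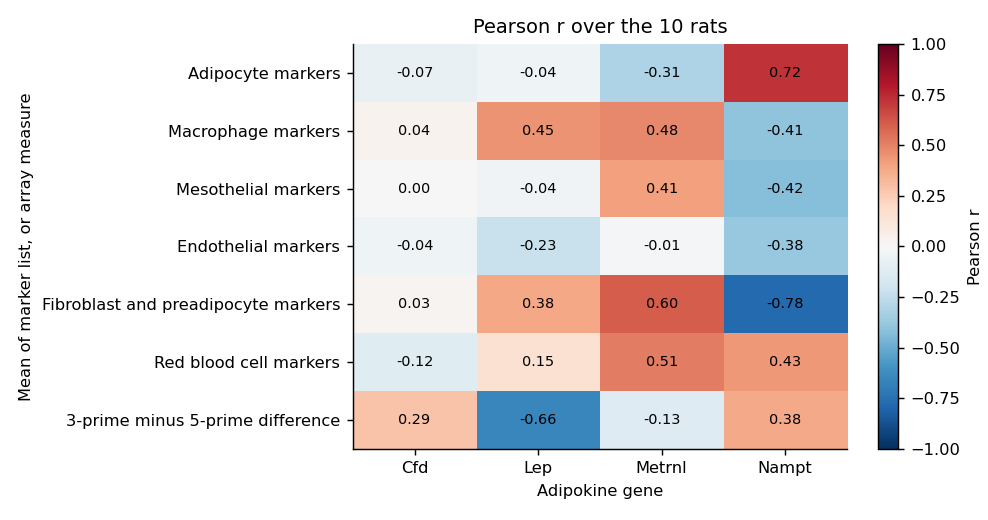
Pearson r over the 10 rats between each adipokine that varied (columns) and the mean of each marker list or the 3-prime minus 5-prime difference (rows). Nampt runs from -0.78 with fibroblast and preadipocyte markers to 0.72 with adipocyte markers, and Lep has -0.66 with the 3-prime minus 5-prime difference.

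The genes with patterns most like each adipokine were picked from 1777 named genes with a varying probe set, so high values of r are given by the choice and carry no test. For Nampt, Abcd2, a peroxisomal fatty acid transporter, had an r of 0.875 over the 10 rats, Coq9, which serves coenzyme Q synthesis, 0.868, and Idh1, a source of NADPH in cytosol and peroxisomes, 0.864. Cisd1, an iron-sulfur protein of the outer mitochondrial membrane, had 0.864 and Cpt2, of mitochondrial fatty acid import, 0.863. With 1 rat left out, the lowest r was 0.749 for Abcd2, 0.746 for Coq9, 0.751 for Idh1, 0.741 for Cisd1 and 0.755 for Cpt2. The most opposite were Crip1, a small LIM protein, at -0.913 and the growth factor gene Tgfb3 at -0.91. In all, 26 genes had an r over 0.8 with Nampt and 55 an r under -0.8.

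Metrnl had the most companions, with 66 genes over 0.8 and 19 under -0.8. Closest were Jak1, the kinase of many cytokine receptors, at 0.964, Mxra8, a membrane protein, at 0.917, and the secreted Wnt modulators Dkk3 and Sfrp1 at 0.905 and 0.899, followed by Slc66a3 at 0.895. The r of Jak1 stayed between 0.928 and 0.977 when any 1 rat was left out, and that of Dkk3 between 0.752 and 0.974. The lowest r in that form was 0.797 for Mxra8, 0.82 for Sfrp1 and 0.792 for Slc66a3. Most opposite were Pex11a, which divides peroxisomes, and the adiponectin receptor gene Adipor2, both at -0.911. With 1 rat left out, their r came to -0.791 and -0.794 at the weakest. Adipor2 lay between 8.81 and 9.08 in noodle rats and between 8.40 and 8.93 in control rats, a difference of 0.19 ± 0.11 that did not pass (unadjusted p = 0.101 in limma).

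Lep was followed by Ak3, a mitochondrial adenylate kinase, at 0.926, then by Pakap at 0.887, Zfp91 at 0.847, Septin11 at 0.834 and Rgs5, a signalling regulator abundant in pericytes, at 0.832. Tapt1 at -0.898 and Asrgl1 at -0.889 were its most opposite. Cfd had the fewest companions, with 1 gene over 0.8 and 5 under -0.8. These began with Btnl9 at 0.859, then Arxes1 at 0.779, the peroxisomal oxidation enzyme gene Ehhadh at 0.777, the proteoglycan gene Sdc2 at 0.768 and the basement membrane laminin gene Lama4 at 0.751. Pdlim1 at -0.898 and the phosphatase gene Dusp3 at -0.846 were most opposite to Cfd.

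Among the receptors of these adipokines and the genes that make, activate or control them, none passed either. Of 38 genes listed, 34 were measured and 12 varied, and of these 6 were higher and 6 lower in noodle rats, with a median difference of -0.01, where the median of all 2607 varying probe sets was -0.01. Adipor1, the leptin receptor gene Lepr, the chemerin receptor genes Cmklr1 and Ccrl2 and the retinol uptake gene Stra6 had flat probe sets. Masp1, whose splice form MASP-3 activates pro-factor D, the product of Cfd, was the 1 gene of the list whose groups did not overlap, as in 0.959% of varying probe sets. It stood at 7.05, 6.81, 6.97, 6.69 and 6.86 in noodle rats 1, 4, 7, 10 and 13, against 7.48, 7.21, 7.09, 7.17 and 7.62 in control rats 2, 5, 8, 11 and 14. The difference was -0.44 ± 0.12 (unadjusted p = 0.0047, adjusted p = 0.974 in limma), and -0.50 to -0.36 with any 1 rat left out. Cdh13, which binds adiponectin at the surface of vessel and muscle cells, lay between 7.84 and 8.29 in noodle rats and between 8.07 and 8.55 in control rats, a difference of -0.21 ± 0.11 (adjusted p = 0.993, limma).

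Other secreted factors of fat showed more lower than higher values. Of 52 genes listed, 48 were measured and 23 varied, of which 6 were higher and 17 lower in noodle rats, or 73.9% lower beside 55.4% of all varying probe sets, and 0 passed. The counts were the same after quantile normalization and after centring of the arrays. These settings changed little, since the median difference of all probe sets went from 4.19e-06 to 0.00124 and 0.00166. The count was not repeated without control rat 14. C1qtnf1, an adiponectin-related gene, lay between 7.62 and 8.03 in noodle rats and between 7.98 and 8.42 in control rats, a difference of -0.31 ± 0.10, and Inhbb, which encodes an activin subunit, between 8.82 and 9.19 in noodle rats and between 9.08 and 9.53 in control rats, a difference of -0.32 ± 0.11. Both had an adjusted p of 0.993 (limma). Control rat 14, highest in Metrnl, was also the highest of the 10 in C1qtnf1 and Masp1.

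Markers of some other cells leaned with the diets beside these lists, where 55.4% of all varying probe sets were lower in noodle rats. Of 5 varying endothelial markers 2 were higher and 3 lower, and of 11 adipocyte markers 6 were higher and 5 lower. Of 7 fibroblast and preadipocyte markers 5 were higher and 2 lower. All 8 measured mesothelial markers had a lower mean in noodle rats, with a median difference of -0.31. By group medians Wt1 (7.442 against 7.436) and Krt7 (5.808 against 5.766) were higher in noodle rats and the others lower. The mean of the 8 lay between -0.605 and 0.217 in noodle rats and between -0.671 and 0.834 in control rats. It was highest in control rats 14 (0.834) and 11 (0.631). The mesothelial keratin gene Krt8 differed by -0.54 ± 0.17 and Msln, at a level of 7.71, by -0.34 ± 0.62. All 4 measured red blood cell markers were lower too, and their mean lay between -0.416 and -0.00122 in noodle rats and between -0.205 and 0.329 in control rats. Of 15 varying macrophage markers 14 were higher, with a median difference of 0.16 and a mean between -0.201 and 0.259 in noodle rats and between -0.29 and 0.204 in control rats. None of these markers passed the test, and Krt8 and Msln are given as examples. Besides Krt8, the unadjusted limma p was under 0.1 for Krt18, Slc4a1, Alas2, Hbb, Ahsp and Trem2, all lower in noodle rats. It was also under 0.1 for Cd36, C1qa and Dpt, which were higher. Metrnl had an r of 0.414 with the mesothelial mean (-0.0827 without control rat 14), 0.508 with the red blood cell mean and 0.482 with the macrophage mean (adjusted p = 0.717 for each, permutation). With the macrophage mean, r was 0.845 and rho 0.818 on deviations from the diet means (adjusted p = 0.114, permutation), with 0.684 within the noodle rats and 0.95 within the control rats, and the pooled r was 0.326 without control rat 14. Their part in the differences of Metrnl, Masp1, C1qtnf1, Cdh13 and Inhbb was not tested.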

How the data were processed

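White adipose tissue RNA of 10 rats was measured on 1 array each. Per the labels' protocols, 100 ng of total RNA was made into biotin-labelled cRNA. The authors deposited processed values, 1 for each array and probe set, read as log2 because of their range. Their log base, background correction and normalization are not stated in the labels, and the number of arrays limits the precision. Of 31099 probe sets, 57 controls were left out of the fit and 20826 have 1 gene symbol (436 several, 9780 none); 20758 of these matched a RefSeq gene by identifier. Values were fitted as deposited with limma 3.58.1 in R 4.3.3 (lmFit, eBayes, two-sided, Benjamini-Hochberg over 31042 probe sets, threshold 0.05) and tested on simulated data. Correlations used 100000 shuffles (numpy 2.4.6), with adjustment over both coefficients of all pairs of a family. Where a listed gene had several varying probe sets, the strongest stood for it, and a marker mean averages deviations from each gene's mean. Named by rule were all adipokine probe sets, the 5 most alike and 2 most opposite genes, and some list genes. The latter were varying genes with an unadjusted p under 0.1 in the lists of receptors and of other secreted factors. Cell type markers were named outside this rule. Members, lists and rules were chosen with earlier results of these data known. The labels name paired feeding but not which rats formed pairs, and the groups share no animal numbers, so no pairs were fitted. The labels number the rats and name no litter or cage. The tests set differences against the spread between these rats and treat the rats as independent, which the labels do not show.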

Additional observations from a re-analysis of the deposited data

Results flagged for a closer look

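Over 34 groups of 5 rats (4 adipokines, 3 array measures, 6 marker means and 4 genes of the lists), 1 contained an outlying rat. About 1.7 of 34 groups, or 1 in 20, would contain one by chance. The array of control rat 14 had a mean correlation of 0.9948 with the other arrays, against 0.9959 to 0.9963 for the other control rats. The same rat had the highest Lep and Metrnl of all 10, and the values without it stand beside those results.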

How the results depend on the processing

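Of 20 settings, 19 left 0 probe sets past the threshold on the diet and leaving out control rat 14 left 1 (0 to 1 over the 10 rats), while the adipokines past it stayed at 0 in all 20. Lep turned to -0.0151 with array weights and -0.41 with the 3-prime to 5-prime covariate, and Nampt to 0.0667, 0.191 and, with the fibroblast marker covariate, 0.0238. With each rat left out, Lep ran from -0.063 to 0.198 and Nampt from -0.127 to 0.123, so neither has a settled sign; Cfd ran from 0.0056 to 0.108 and Metrnl from -0.251 to -0.10. The reversals of Lep were -0.019 and -0.0366 without noodle rats 1 and 13 and -0.063, -0.00822 and -0.00769 without control rats 5, 8 and 11, and those of Nampt 0.0684 without noodle rat 4 and 0.123 and 0.00562 without control rats 5 and 8. The 3-prime to 5-prime difference between the diets ran from -0.144 to -0.0848. Lep and Cfd reached -0.777 and passed on deviations from the diet means, and ran from -0.792 to -0.65 with each rat left out. After quantile normalization the r of Lep and Cfd was -0.653 and did not pass (adjusted p = 0.286, permutation). In that setting Cfd and Metrnl had an r of -0.0032 and Cfd and Nampt 0.012. Cfd and Nampt turned to -0.109 without the 2 farthest rats and ran from -0.11 to 0.567. Nampt against fibroblast markers ran from -0.876 to -0.712. Quantile normalization moved the levels of Adipoq, Rbp4 and Rarres2, to 12.678, 11.973 and 11.194, by more than their SDs, and took those SDs above the flat limit of 0.01. Averaging a gene's varying probe sets changed nothing, since each adipokine had 1. The causes of these changes were not tested. The marker covariate, leaving control rat 14 out of correlations, leaving rats out of the array measures, the Nampt pair and the alternatives for marker lists were chosen after seeing the data. No paired analysis was possible because no animal number occurs on both diets and, although feeding was paired, the labels do not tell which rats formed a pair.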
